A study of Homo sapiens with 24 samples.

Results

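The proteins of the cytosolic ribosome are encoded by one of the most abundantly transcribed gene sets of a growing cell, and the messages of its large and small subunit were followed here across 8 culture media. The set holds 81 of the 58735 genes in the deposited table. Its members are the protein-coding genes whose symbol is RPL or RPS followed by a number, alone or with an ending A, L or X, together with RPSA, RPLP0, RPLP1 and RPLP2. The RPS6K kinases and genes on chromosome Y were left out. Of the members, 49 belong to the large subunit and 32 to the small subunit by name, and the choice used no measured value.

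RNA came from Ovcar8, an established human cell line (high grade serous ovarian cancer), grown on a surface that cells do not stick to, with 3 libraries in each of 8 groups. Cells of the first 3 groups received fresh medium, medium conditioned by proliferating cells given vehicle (proliferative medium), or medium conditioned by cells that cisplatin had made senescent (senescent medium). For another 3 groups the senescent medium was boiled, or split into its part below or above 3 kDa. The remaining 2 groups had been pre-treated with proliferative or with senescent medium, and the labels do not state what the cells were kept in afterwards. Per the labels, conditioned medium and RPMI 1640 with 5% serum were combined in equal parts, and which cells conditioned the media is not given. Whether the 3 libraries of a group came from separate cultures is not stated either, so the p-values below measure the spread between libraries, which may be technical.

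A ribosome carries 1 copy of most of these proteins, and a protein left without its partners in the subunit is degraded, so the messages are usually present in similar amounts. Most of the messages start with a terminal oligopyrimidine tract (TOP): a cytosine at the cap followed by a run of pyrimidines. Through this tract LARP1 and the growth kinase mTOR govern how much of the message is translated and how stable it is. In cancer cells the demand for ribosomes follows growth, and free ribosomal proteins such as RPL5 and RPL11 can bind MDM2, the ubiquitin ligase of p53.

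The tract was looked for in the RefSeq promoters of build GRCh38.p14, in which 64 of the 81 members had an entry. A C at the annotated start followed by at least 4 pyrimidines (C or T), on the gene's own strand, was present in 46 of them (71.9%). The share was 71.8% in the large and 72% in the small subunit, against 6.24% of all 15842 protein-coding genes with an entry and 8.7% of 69 genes for mitochondrial ribosomal proteins. When the run could begin within 5 bases of the start, the share was 82.8% of the members and 28% of all the protein-coding genes. The windows that follow are those of members whose values are described below, chosen to show starts with and without the run. Each holds 20 bases before the start and 20 from it on, and capitals mark the run.
RPL13A (chr19:49487588-49487627, + strand): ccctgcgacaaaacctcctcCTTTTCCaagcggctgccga
RPLP0 (chr12:120201092-120201131, - strand): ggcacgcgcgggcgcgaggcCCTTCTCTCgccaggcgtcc
RPL39 (chrX:119791611-119791650, - strand): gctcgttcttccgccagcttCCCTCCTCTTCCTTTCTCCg
RPL41 (chr12:56116613-56116652, + strand): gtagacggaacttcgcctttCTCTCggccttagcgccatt
RPS6 (chr9:19380217-19380256, - strand): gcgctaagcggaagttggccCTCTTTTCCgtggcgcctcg
RPSA (chr3:39406700-39406739, + strand): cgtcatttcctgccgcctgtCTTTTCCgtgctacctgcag
RPS21 (chr20:62387083-62387122, + strand): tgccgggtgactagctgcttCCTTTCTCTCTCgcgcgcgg
RPS7 (chr2:3575240-3575279, + strand): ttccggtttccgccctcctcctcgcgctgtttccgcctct
RPL9 (chr4:39458903-39458942, - strand): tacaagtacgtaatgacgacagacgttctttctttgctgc
RPS27L (chr15:63157458-63157497, - strand): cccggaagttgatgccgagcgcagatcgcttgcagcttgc
The run was 19 bases long in RPL39, 12 in RPS21, 9 in RPLP0 and RPS6, 7 in RPL13A and RPSA, and 5 in RPL41. At the start annotated for RPS7, RPL9 and RPS27L no such run begins, which says only that these letters are not at that position. For RPS7 a run does begin within 5 bases of the start, and for RPL9 and RPS27L none does.

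Library totals ran from 14718120 to 21956598 counts. Mitochondrially encoded genes took 5.93% to 6.12% of counts in fresh medium, 4.55% to 4.58% with proliferative and 4.09% to 4.79% with senescent medium. Among markers of high grade serous carcinoma, PAX8 lay between 147.6 and 302.2 counts scaled to a common library size (CPM) and KRT8 between 793.6 and 1272, whereas MECOM was at 0 in 23 of the 24 libraries and SOX17 and MUC16 stayed under 1 CPM. The summed level of the 4 immune markers did not pass 7.04 CPM, with PTPRC and CD3E at 0 in 21 and 23 libraries. Of the 4 fibroblast markers COL1A1 held 1146 to 2157 CPM while DCN was at 0 in 23 libraries. Their sum, nearly all of it COL1A1, was lowest in senescent medium (1212 to 1272, against 2091 to 2220 in fresh medium). PDGFRB and LUM went the other way, with every senescent library above every fresh one. PDGFRB had 63.51 to 69.06 CPM in senescent and 54.51 to 61.19 CPM in fresh medium. The part of the mitochondrial share and of these markers in the results below was not tested.

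Levels between genes were compared per length, as the authors' values per kilobase of gene and library size (FPKM). The highest mean FPKM in the large subunit belonged to RPL8 (1278), RPL41 (1045) and RPL13A (909), and in the small subunit to RPS2 (1226), RPS18 (1060) and RPS12 (703). RPL41 encodes one of the shortest proteins known, and RPL13A also takes part in silencing of inflammatory messages. At the other end RPL36A stood at 2.78 FPKM, RPS27L at 3.71 and RPS10 at 2.27. RPL3L, the muscle form of RPL3, was at 0.197 FPKM, and RPL10L, the testis form of RPL10, had 0 counts in all 24 libraries. The length behind these FPKM had a median of 3002 bases over the members, far above the median of 691 bases of their coding transcripts (359 to 1526), so the FPKM understate their level per transcript. Ranking by CPM per kilobase of transcript put RPS2, RPS18 and RPL8 first, in that order, and over the 81 members both rankings had a Spearman rho of 0.825.

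Some of the lowest levels belong to genes with many processed copies. The table lists 1132 pseudogenes named for members, which together held counts equal to 5.07% of the members' own. For RPL9 the pseudogene counts were 168% of the gene's own, for RPS10 144% and for RPS28 112%, and for 12 members they passed 10%. Another annotated gene overlapped 42 members on the same strand. Single values of such members are uncertain, since how the authors assigned shared reads is not given.

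The 80 members with counts enough to be tested were summed by subunit in each library. Large subunit genes took 3.88% to 3.98% of all counts in fresh medium, 4.17% to 4.23% in proliferative medium and 4.94% to 5.11% in senescent medium. For the small subunit the share was 2.34% ± 0.0384 (SD, n = 3) with fresh medium, 2.33% ± 0.0235 with proliferative medium and 2.95% ± 0.0171 with senescent medium. Senescent medium thus stood above every other group in both subunits, with no library overlapping. Both subunits together took 7.87% to 8.08% there, 6.42% to 6.81% in the fraction below 3 kDa, 6.35% to 6.74% in boiled medium and 6.48% to 6.59% in proliferative medium. The last 3 ranges overlap, and they lie above the 6.18% to 6.35% of fresh medium. The fraction above 3 kDa came next with 5.88% to 6.11%, and the pre-treated groups were lowest, at 5.34% to 5.52% after proliferative and 5.14% to 5.48% after senescent medium, ranges that overlap. Of nuclear protein-coding counts alone, the mean share was 6.87% with fresh, 7.03% with proliferative, 8.57% with senescent medium and 5.74% in the group pre-treated with senescent medium. In RNA from a whole culture, fewer cells of a kind and less of a message per cell cannot be told apart, and a share says nothing about the amount of RNA per cell.

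**Figure D1:**
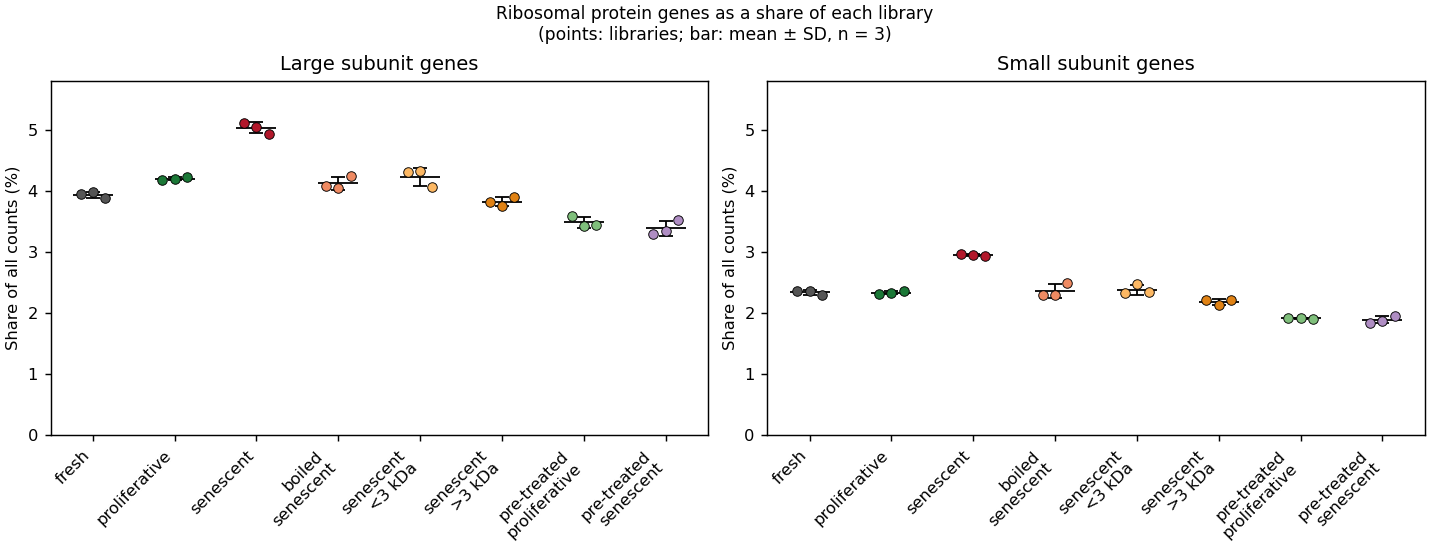
The share of all counts in each library (percent, vertical axis) taken by large subunit genes (left) and small subunit genes (right) in the 8 medium groups; points are libraries, the bar is the mean ± SD of 3. The libraries of senescent medium (4.94% to 5.11% and 2.95% ± 0.0171) lie above all others, and those of the pre-treated groups are lowest.

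Across single genes, the mean level was highest in senescent medium for 70 of the 80 tested members, 43 of them large and 27 small subunit genes. It was lowest in the group pre-treated with senescent medium for 41 members and in the group pre-treated with proliferative medium for 26. No member was lowest in senescent medium. This order of group means was not counted over all genes tested, so these counts describe the members only. Exceptions with their highest level in boiled medium include RPL10 and RPS27L, both of which are described further on.

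**Figure D2:**
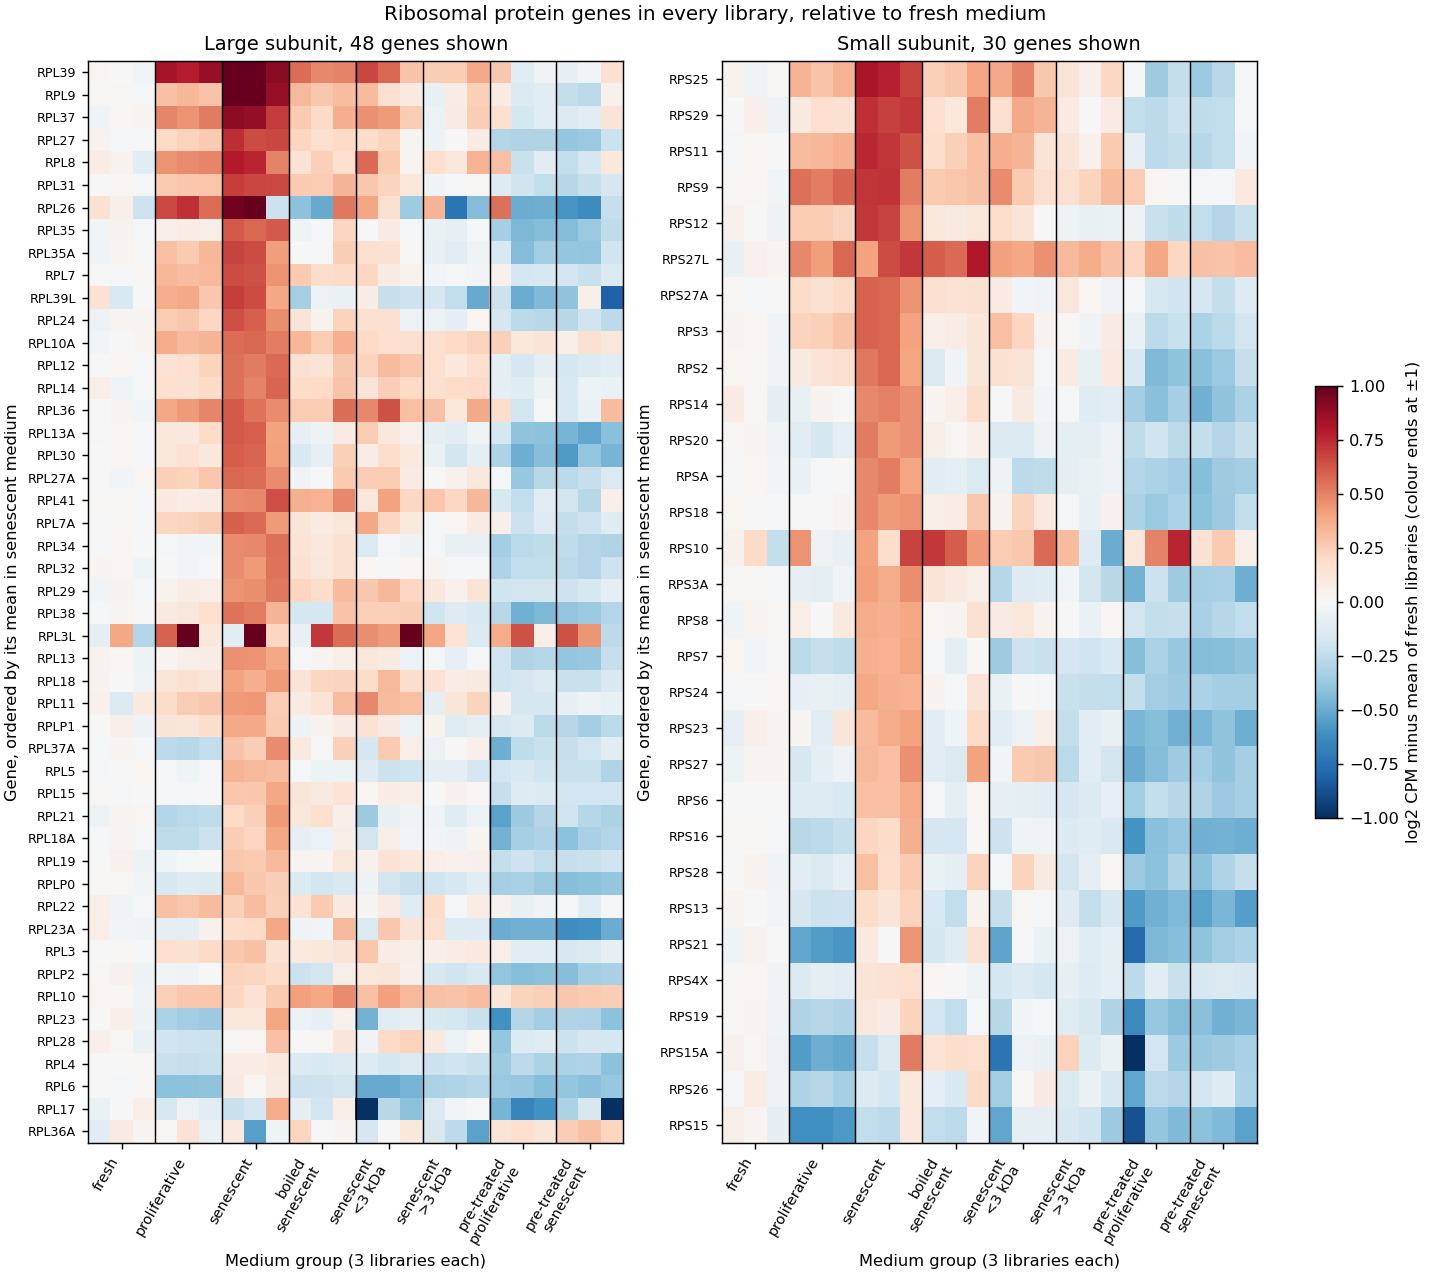
Each row shown is a tested member (48 large and 30 small subunit genes) and each column a library in its medium group; colour gives log2 CPM minus the gene's mean in fresh medium, with genes in order of their mean in senescent medium and colours ending at 1 either way. The senescent columns are red for most rows and the pre-treated columns blue, while RPL10, RPL10A and RPS27L are above 0 in every library outside fresh medium. The rows of RPL3L, RPL26, RPL17 and RPS10 hold low counts and vary between libraries.

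Senescent medium was first set against proliferative medium, both being media conditioned by cells. Changes are log2 fold changes ± standard error from edgeR quasi-likelihood fits over all 24 libraries, on which 1 unit is a 2-fold change, and a gene is called at an adjusted p under 0.05 over all 19210 genes tested. In the large subunit 37 of 48 members rose and 0 fell, with a median of 0.32, and in the small subunit 26 of 32 rose and 0 fell, with a median of 0.44. Over all genes tested 16.6% rose, 12.4% fell and the median was near 0. With library totals as the scale 11.44% of all genes rose and 18.52% fell, with a median of -0.086. On that scale 35 large subunit members rose and 1 fell, and 26 small subunit members rose and 0 fell. In 67 of the 80 members every senescent library lay above every proliferative one, as it did for 23.3% of all genes.

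RPL9, a protein at the base of the ribosomal stalk (chr4:39452521-39458949, - strand), had 274.4, 282.2 and 273.1 CPM in proliferative and 453.3, 456.1 and 410.0 CPM in senescent medium. The groups are far apart, and the change was 0.67 ± 0.08 (edgeR adjusted p = 4.18e-06). With the counts of its pseudogenes added, the change of RPL9 was 0.55 (edgeR adjusted p = 1.28e-12). RPS7, a small subunit protein that can also bind MDM2 (chr2:3575205-3580920, + strand), went from 611.5, 630.8 and 620.9 to 947.2, 940.7 and 970.3 CPM. Its libraries were tight in both groups, and it rose by 0.62 ± 0.04 (edgeR adjusted p = 3.71e-17). RPS21, a neighbour of RPSA in the small subunit, had 330.8, 321.8 and 317.0 CPM against 509.1, 472.8 and 644.3 CPM, a rise of 0.75 ± 0.13 (edgeR adjusted p = 0.000282). Senescent library 3 is the highest for RPS21, and the other 2 are near the level in fresh medium (464.5 to 486.2 CPM). RPL37A, a zinc-binding protein of the large subunit, rose by 0.60 ± 0.09 (edgeR adjusted p = 8.48e-05), from 467.4 to 476.0 CPM to 671.9 to 786.9 CPM.

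The lateral stalk, which recruits elongation factors, is made of RPLP0 with RPLP1 and RPLP2. RPLP0 had 2576, 2639 and 2617 CPM in proliferative and 3610, 3487 and 3429 CPM in senescent medium, a rise of 0.43 ± 0.03 (edgeR adjusted p = 1.02e-13). RPLP1 rose by 0.20 ± 0.05 and RPLP2 by 0.23 ± 0.04. RPS6, the substrate after which the S6 kinases are named, went from 985.2, 984.6 and 967.1 to 1328, 1328 and 1389 CPM, a rise of 0.46 ± 0.03 (edgeR adjusted p = 1.81e-14). RPSA, which is also known as the laminin receptor, rose by 0.49 ± 0.04, and RPS27A, made as a fusion with ubiquitin, by 0.36 ± 0.04. RPS4X, an X-linked small subunit gene, rose by 0.26 ± 0.04. RPL41 rose by 0.45 ± 0.08 and RPL13A by 0.41 ± 0.07.

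The partners in the complex that binds MDM2 differed in their calls. RPL5 rose by 0.35 ± 0.03 (edgeR adjusted p = 4.08e-12), from 1719 to 1749 CPM to 2191 to 2234 CPM. RPL11 had 550.3 to 581.8 CPM against 577.3 to 652.7 CPM, a change of 0.14 ± 0.09 that did not pass (edgeR adjusted p = 0.26). The difference between RPL5 and RPL11 itself was not tested. The other 16 members that did not pass include RPL10 (-0.06 ± 0.04), RPL22 (-0.04 ± 0.05), RPL3 (0.07 ± 0.05), RPS9 (0.11 ± 0.08) and RPS27L (0.10 ± 0.08). RPS15A (0.61 ± 0.22) and RPL8 (0.22 ± 0.14) were also among them, with libraries spread within groups. RPL39 passed narrowly (0.29 ± 0.10, edgeR adjusted p = 0.0448), and its call was lost when any of the proliferative libraries or senescent library 1 or 2 was left out, and with library totals or upper quartile factors as the scale. The call was also lost when pseudogene counts were added (0.25, edgeR adjusted p = 0.211).

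Against fresh medium the rise was of similar extent. In the large subunit 40 of 48 members rose and 0 fell (median 0.48), in the small subunit 25 of 32 rose and 0 fell (median 0.37), while 18.2% of all genes rose and 15.5% fell. In 69 members all senescent libraries lay above all fresh ones, against 23.2% of all genes. RPL39, which lines the exit tunnel for the growing chain (chrX:119786504-119791643, - strand), had 163.1, 161.4 and 157.4 CPM in fresh and 372.1, 370.7 and 301.1 CPM in senescent medium. The libraries of RPL39 did not overlap, and it rose by 1.12 ± 0.11 (edgeR adjusted p = 2.48e-07). RPL9 rose by 0.97 ± 0.08, RPL37 by 0.83 ± 0.10 and RPS25 by 0.76 ± 0.09. RPS6 rose by 0.33 ± 0.03, RPLP0 by 0.28 ± 0.03, RPS27 by 0.36 ± 0.11 and RPL5 by 0.32 ± 0.03. The call of RPS27 was lost without fresh library 1, without senescent library 3 and with library totals or a correction for the table's gene length (edgeR adjusted p of 0.0177 with all libraries). RPS15, RPS21 and RPS26 did not pass against fresh medium, with 0.19 ± 0.13 for RPS21 and -0.06 ± 0.11 for RPS26.

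**Figure D3:**
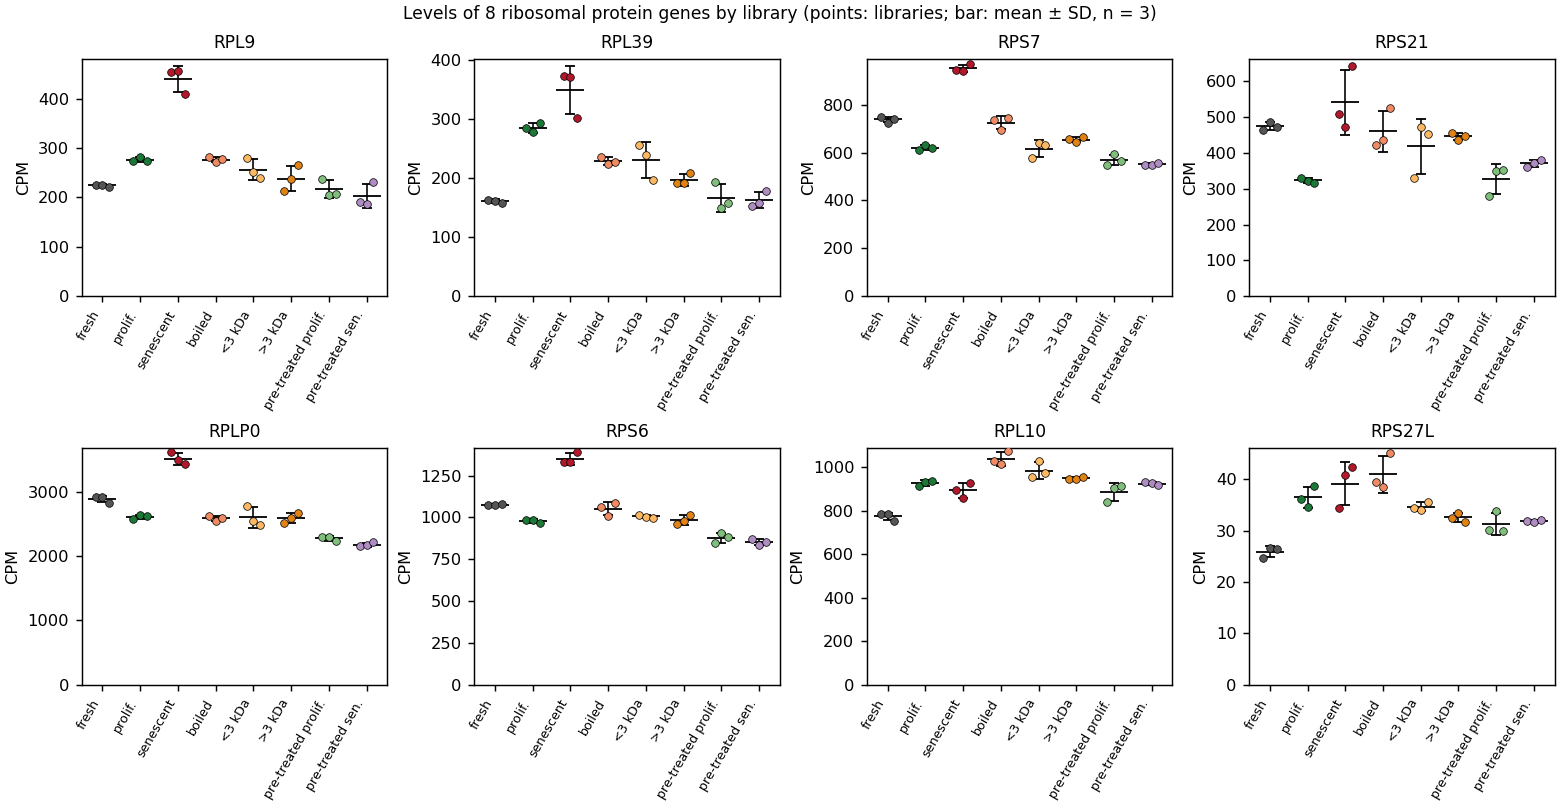
CPM (vertical axis, from 0) of 8 members in each library of the 8 groups, with mean ± SD of 3. RPL9, RPL39, RPS7, RPLP0 and RPS6 peak in senescent medium, and RPS7, RPS21, RPLP0 and RPS6 are lower in proliferative than in fresh medium. RPL10 and RPS27L are lowest in fresh medium, as is the mean of RPL39, whose fresh and pre-treated libraries overlap.

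Proliferative medium split the members when set against fresh medium. In the large subunit 21 of 48 rose and 8 fell (median 0.13), and in the small subunit 7 of 32 rose and 11 fell (median -0.05), against 20.6% of all genes that rose and 21.5% that fell. Rises in the large and falls in the small subunit were thus more frequent than among all genes, whereas falls in the large and rises in the small subunit were near the shares of all genes. The shares of all genes are not matched to the members in length or level. With upper quartile factors as the scale the split over both subunits went from 28 rises and 19 falls to 32 and 14. The shares of all genes then were 22.81% that rose and 19.11% that fell. RPL39 rose from 157.4 to 163.1 CPM to 277.1 to 293.6 CPM (0.83 ± 0.11, edgeR adjusted p = 5.12e-06), and RPS9, RPS27L and RPL37 rose by 0.55 ± 0.08, 0.49 ± 0.08 and 0.48 ± 0.10. RPS15 fell from 1015, 991.5 and 916.7 to 634.5, 637.0 and 652.4 CPM (-0.60 ± 0.13, edgeR adjusted p = 0.00133). RPS21 (-0.56 ± 0.13), RPL6 (-0.41 ± 0.03, edgeR adjusted p = 8.33e-15) and RPL23 (-0.34 ± 0.10) fell too. RPL6 went from 1284 to 1302 CPM to 970.7 to 979.1 CPM, with little spread. The ratio of small to large subunit counts was 0.591 to 0.596 in fresh and 0.553 to 0.556 in proliferative medium, ranges that do not overlap.

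Libraries of 1 group also differed along this split. In the fraction below 3 kDa the small to large ratio was 0.540, 0.573 and 0.578, and after pre-treatment with proliferative medium it was 0.535, 0.561 and 0.556, so that the first library of each had the lowest ratio of its group. RPS15A had 126.4, 201.2 and 198.7 CPM in the first of these groups and 93.5, 184.3 and 163.0 CPM in the second, against 201.4 to 215.6 CPM in fresh and 142.3 to 149.4 CPM in proliferative medium. In senescent medium it had 178.5, 189.7 and 301.4 CPM, with library 3 apart the other way. Across the 72 members with a mean of at least 50 CPM, the difference between the first library and its fellows correlated with the change of proliferative against fresh medium at Pearson r = 0.76 for the fraction and 0.84 for the pre-treated group. For senescent library 3 against its fellows r was -0.81. These correlations run over genes that share libraries and are descriptions. Transcript GC content correlated with none of these differences beyond 0.08 either way. What sets these libraries apart was not tested.

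**Figure D4:**
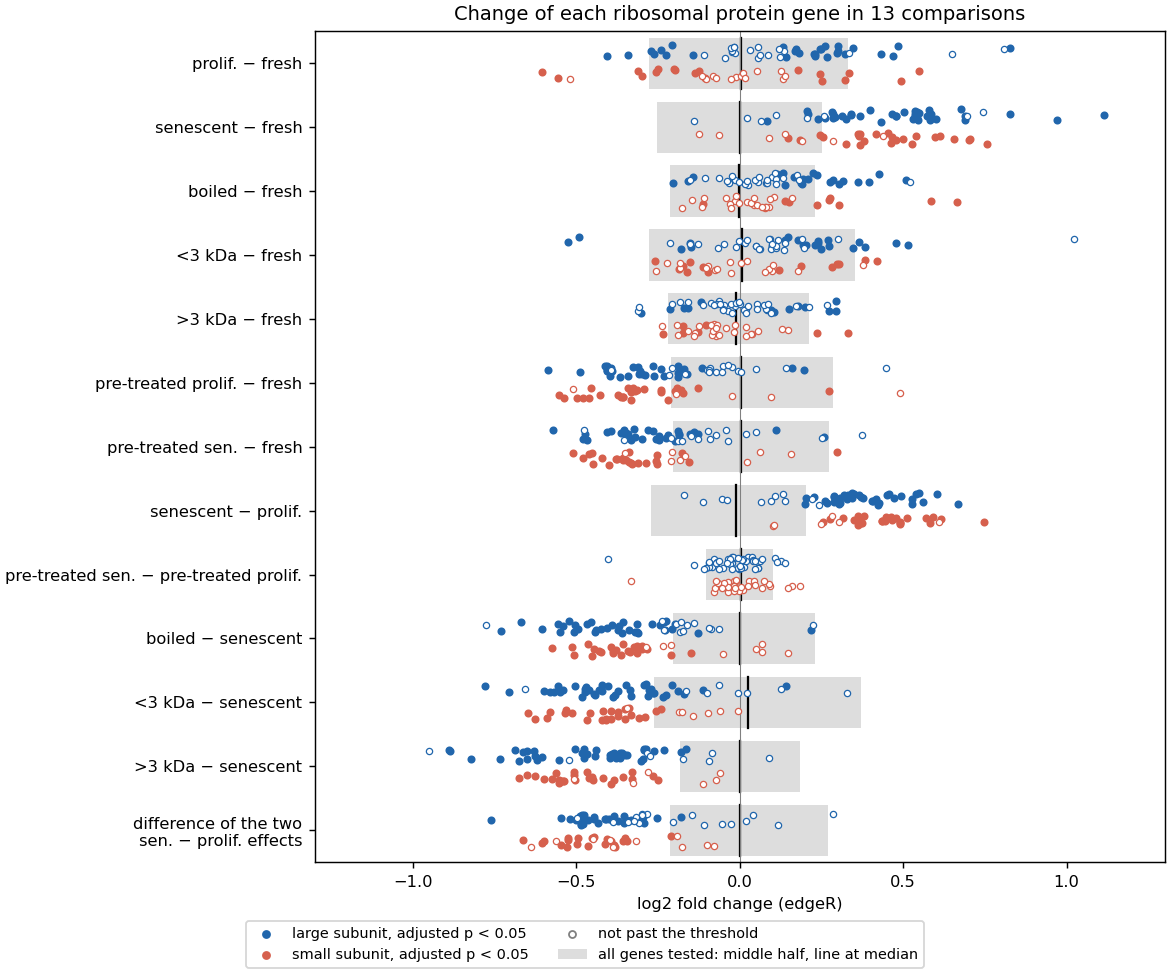
log2 fold change (horizontal axis) of each tested member in each comparison, large subunit in the upper and small subunit in the lower row of a band; filled points passed the adjusted p, open points did not, and grey boxes span the middle of all genes tested with their median as a line. Both rows lie to the right for senescent medium against fresh and proliferative medium, to the left for the altered senescent media against intact senescent medium and for the pre-treated groups against fresh medium, and around 0 for the pre-treated pair.

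Members were lower in each of the altered senescent media than in the intact one. With boiled medium 1 of 48 large subunit members rose and 34 fell (median -0.32) and 0 of 32 small subunit members rose and 24 fell (median -0.33), while 11.2% of all genes rose and 14.7% fell. In the fraction below 3 kDa 1 large subunit member rose and 39 fell (median -0.36) and 25 small subunit members fell (median -0.37), against 19.9% and 22.7% of all genes. In the fraction above 3 kDa 40 large (median -0.40) and 26 small subunit members fell (median -0.46) and 0 rose, against 8.14% of all genes that rose and 10.0% that fell. The libraries of the fraction above 3 kDa lay below all those of senescent medium in 70 of 80 members, against 17.3% of all genes. These comparisons share the senescent libraries and are not independent of one another.

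RPL9 had 281.6, 270.7 and 277.5 CPM in boiled medium, 279.4, 250.8 and 238.2 CPM below 3 kDa and 213.3, 236.3 and 264.5 CPM above 3 kDa, all under the lowest senescent library (410.0 CPM). The falls of RPL9 were -0.67 ± 0.08, -0.78 ± 0.08 and -0.89 ± 0.08 in that order (largest edgeR adjusted p = 5.26e-06). RPSA, at 2119 to 2304 CPM in senescent medium, had 1463 to 1518, 1348 to 1559 and 1506 to 1547 CPM, and fell by 0.58 ± 0.04, 0.65 ± 0.04 and 0.54 ± 0.04. RPS7 fell by 0.39 ± 0.04, 0.63 ± 0.04 and 0.54 ± 0.04, and RPL39 by 0.61 ± 0.10, 0.60 ± 0.10 and 0.82 ± 0.10. RPL39L, a paralog of RPL39 best known from testis, was at 11.1 to 13.6 CPM in senescent medium and fell by 0.73 ± 0.15, 0.71 ± 0.15 and 0.89 ± 0.15. RPL10 was the 1 member that rose with boiling (0.22 ± 0.04) and in the fraction below 3 kDa (0.14 ± 0.04), and it did not pass above 3 kDa (0.09 ± 0.04).

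Against fresh medium the altered media held smaller changes. With boiled medium 18 large subunit members rose and 3 fell (median 0.11) and 8 small subunit members rose and 1 fell (median 0.06), against 14.0% and 13.9% of all genes. With a trend on transcript length removed in each library, 14 large subunit members rose and 4 fell (median 0.07), and 7 small subunit members rose and 4 fell (median 0.01). The members that fell without it were RPL6 (-0.20 ± 0.03), RPLP0 (-0.16 ± 0.03), RPL4 (-0.14 ± 0.03) and RPSA (-0.11 ± 0.04), and the call of RPSA was lost without fresh library 1 or 2 or boiled library 1 or 3 and with upper quartile factors. RPS10 rose by 0.58 ± 0.19 at 6.002 to 7.299 CPM, and this call was lost without fresh library 3, without boiled library 1 and when pseudogene counts were added (0.25, edgeR adjusted p = 0.128). Below 3 kDa 17 large subunit members rose and 5 fell (median 0.11) and 7 small subunit members rose and 7 fell (median -0.03), against 22.1% and 22.5% of all genes. With upper quartile factors the 24 rises and 12 falls became 36 and 8, and the shares of all genes became 26.29% and 18.55%. RPL6 (-0.49 ± 0.03), RPS7 (-0.26 ± 0.04) and RPSA (-0.19 ± 0.04) were among the falls, and RPL39 (0.52 ± 0.11), RPL36 (0.48 ± 0.12) and RPS25 (0.38 ± 0.09) among the rises. Above 3 kDa 8 large subunit members rose and 5 fell (median -0.01) and 2 small subunit members rose and 5 fell (median -0.08), against 13.9% and 13.0% of all genes. With library totals as the scale the 10 rises and 10 falls became 6 and 19, and the shares of all genes became 11.36% and 17.14%. RPL6 (-0.30 ± 0.03), RPS24 (-0.24 ± 0.04) and RPL4 (-0.21 ± 0.03) fell most, and RPL41 rose by 0.27 ± 0.08, a call lost without fresh library 3 or fraction library 3.

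Both pre-treated groups had lower members than fresh medium. After proliferative medium 2 large subunit members rose and 28 fell (median -0.20) and 1 small subunit member rose and 26 fell (median -0.32), against 15.1% of all genes that rose and 16.7% that fell. After senescent medium 2 large subunit members rose and 30 fell (median -0.22) and 1 small subunit member rose and 23 fell (median -0.33), against 14.6% and 15.6% of all genes. RPLP0 had 2915, 2910 and 2829 CPM in fresh medium, 2288, 2300 and 2234 CPM after proliferative and 2149, 2168 and 2211 CPM after senescent medium. No pre-treated library of RPLP0 reached a fresh one, and its falls were -0.34 ± 0.03 and -0.41 ± 0.03 (largest edgeR adjusted p = 2.02e-11). RPS6 fell by 0.29 ± 0.03 and 0.33 ± 0.03, RPL5 by 0.18 ± 0.03 and 0.25 ± 0.03, and RPS13 by 0.50 ± 0.06 and 0.51 ± 0.06. RPL23A, a protein of the exit site, fell by 0.57 ± 0.11 after senescent medium, and RPS16 by 0.48 ± 0.05. RPS15 fell by 0.55 ± 0.13 after proliferative medium, where library 1 was lowest at 531.6 CPM and the others were at 743.0 and 717.3 CPM, and this call was lost when only the groups compared were fitted. RPL17, at 3.82 to 8.56 CPM in these groups, fell by 0.59 ± 0.18 and 0.48 ± 0.18, and the second call was lost without any 1 fresh library or without pre-treated library 3, with upper quartile factors and with pseudogene counts added. RPL39, RPL9, RPL8 and RPL37 did not pass in either pre-treated group, with changes of 0.05 ± 0.11, -0.05 ± 0.08, 0.00 ± 0.14 and -0.04 ± 0.10 after proliferative medium.

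Between the pre-treated groups 0 of 80 members passed in either direction with edgeR, and 0 with DESeq2, against 0.625% of all genes that rose and 0.265% that fell. The median was -0.01 in both subunits, 2 members had an unadjusted p under 0.05, and the lowest adjusted p was 0.462. RPS7 had 550.4, 592.8 and 567.2 CPM after proliferative and 547.8, 550.2 and 557.7 CPM after senescent medium, a difference of -0.05 ± 0.04. The difference between both effects, senescent against proliferative after pre-treatment minus the same in direct exposure, was tested as an interaction. It was negative and past the threshold for 30 of 48 large (median -0.35) and 22 of 32 small subunit members (median -0.43), and positive and past it for 0, against 8.19% of all genes that were negative and 5.58% that were positive. RPL9 (-0.76 ± 0.12, edgeR adjusted p = 0.000183), RPS7 (-0.66 ± 0.05, edgeR adjusted p = 1.42e-12) and RPS20 (-0.60 ± 0.06) were among the lowest values past the threshold. RPS6 stood at -0.50 ± 0.05, RPLP0 at -0.49 ± 0.05 and RPL5 at -0.41 ± 0.04, whereas RPL3 (-0.15 ± 0.06) and RPL10 (0.12 ± 0.05) did not pass.

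RPL10 and RPS27L departed from the course of most members. RPL10, which joins the large subunit late in its assembly (chrX:154389955-154409168, + strand), had 784.0, 783.1 and 753.6 CPM in fresh medium, below every other library of the study. Its level was 1012 to 1073 CPM in boiled and 855.9 to 925.9 CPM in senescent medium, and it rose against fresh medium in each of the 7 other groups, by 0.20 ± 0.04 after pre-treatment with proliferative medium up to 0.43 ± 0.04 in boiled medium. RPS27L, a paralog of RPS27 that p53 induces, had 24.6 to 26.7 CPM in fresh and 38.5 to 45.1 CPM in boiled medium. It also rose in each of the 7 groups, from 0.27 ± 0.08 (edgeR adjusted p = 0.00735, lost without library 2 of that group) after pre-treatment with proliferative medium to 0.67 ± 0.08 in boiled medium. RPS27 itself was at 387.1 to 407.5 CPM in fresh medium, and changed by 0.36 ± 0.11 in senescent medium and by -0.36 ± 0.11 after pre-treatment with it. The last call of RPS27 was lost without fresh library 2 or 3 or pre-treated library 2. RPL10A was the 1 further member that rose in both pre-treated groups, by 0.16 ± 0.04 and 0.11 ± 0.04, and the second call was lost without fresh library 1 or pre-treated library 2. Every library of RPL10A outside fresh medium lay above its fresh ones, as for RPL10 and RPS27L. By group mean, fresh medium was lowest for 6 members, among them these 3. The muscle form RPL3L stayed between 0.28 and 1.201 CPM and passed in no comparison, while RPL3 rose by 0.24 ± 0.05 in senescent against fresh medium.

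Gene length was checked because the members are short. Among protein-coding genes outside the set, the median change of senescent against proliferative medium was 0.02 over 14309 genes, and r between change and log2 transcript length was -0.07. Within the 80 members r was -0.28 (Spearman -0.29), so that shorter members tended to higher values, and with the length in the table r was -0.02. With the log2 mean CPM of the members r was 0.39, larger in size than with length. The 867 other protein-coding genes with transcripts in the members' length range and a mean of at least 100 CPM had a median of 0.09, with 42.1% that rose and 14.6% that fell. The members had a median of 0.36, with 78.8% that rose and 0 that fell. For pre-treatment with senescent medium against fresh medium the 867 genes had a median of -0.06, with 21.0% that rose and 33.8% that fell, and the members -0.26, with 3.75% and 66.2%. With a trend on transcript length and GC content removed in each library, 60 members rose and 0 fell in senescent against proliferative medium, with medians of 0.29 in the large and 0.39 in the small subunit. In proliferative against fresh medium this correction gave 18 rises and 13 falls in the large and 7 rises and 11 falls in the small subunit.

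**Figure D5:**
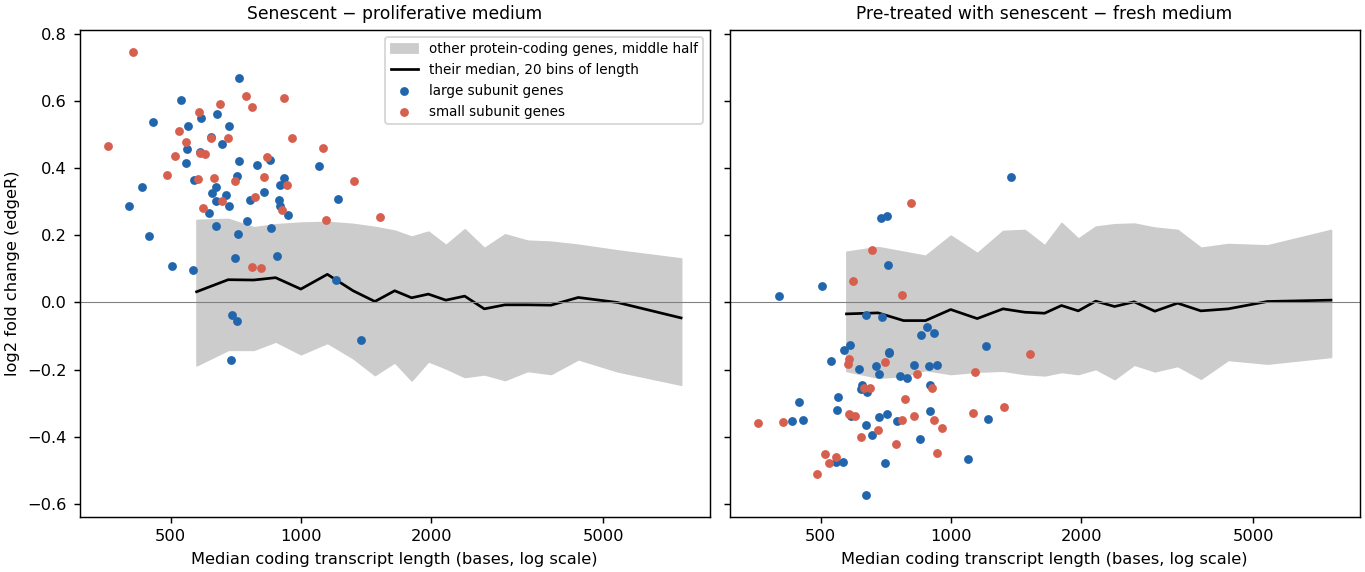
log2 fold change against median coding transcript length (bases, log axis) for senescent against proliferative medium (left) and for pre-treatment with senescent medium against fresh medium (right); points are members, the line is the median and the grey band the middle of other protein-coding genes in 20 bins of length. Most members lie above the band on the left and below it on the right at the same lengths.

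The start sequence was set beside the changes. In senescent against proliferative medium 38 of the 46 members with the pyrimidine run rose (median 0.37), and 13 of 17 tested members with an entry and no run at the start (median 0.33). Of all genes tested, 16.6% rose. RPS7 and RPL9, in which no run begins at the annotated start, were among the largest rises, as were RPS21 with its run of 12 bases and RPL37A. In the fraction above 3 kDa against senescent medium 39 of 46 members with the run fell (median -0.47) and 14 of 17 without (median -0.30), while 10.0% of all genes fell. After pre-treatment with senescent medium against fresh 31 of 46 with the run fell (median -0.26) and 12 of 17 without (median -0.22), while 15.6% of all genes fell. The difference between members with and without the run was not tested.

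Genes of the same machinery that the naming rule leaves out were counted from lists drawn up with earlier results of these data known. Of 7 such ribosome genes, 5 rose and 0 fell in senescent against proliferative medium, 7 rose and 0 fell against fresh medium, and 7 fell in each of the size fractions against intact senescent medium. Of all genes tested, 16.6% rose and 12.4% fell in the first of these comparisons and 18.2% and 15.5% in the second. The shares that fell below and above 3 kDa were 22.7% and 10.0%. FAU, which encodes a small subunit protein fused to a ubiquitin-like one, had 251.8, 241.7 and 256.1 CPM in proliferative and 341.5, 330.1 and 316.6 CPM in senescent medium, a rise of 0.40 ± 0.06. The scaffold RACK1 rose by 0.21 ± 0.03. Among translation factors and other genes known for TOP starts, 15 of 16 were tested, of which 12 rose and 0 fell in senescent against proliferative medium. After pre-treatment with senescent medium against fresh 0 rose and 8 fell, against 14.6% and 15.6% of all genes. The elongation factor subunit EEF1B2 rose by 0.65 ± 0.05 in the first and fell by 0.48 ± 0.05 in the second comparison, and EEF2, which moves the ribosome along the message, rose by 0.18 ± 0.03 and fell by 0.16 ± 0.03. PABPC1 did not pass in either (-0.06 ± 0.04 and 0.10 ± 0.04). EEF1G was listed at 0 in every library.

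Of 24 tested regulators of TOP translation and growth, 7 rose and 7 fell in senescent against proliferative medium, against 16.6% and 12.4% of all genes. LARP1, which binds the TOP tract, did not pass (0.01 ± 0.04), the mTOR target EIF4EBP1 rose by 0.52 ± 0.07, and the mTOR inhibitors TSC1 and TSC2 fell by 0.47 ± 0.05 and 0.16 ± 0.04. After pre-treatment with senescent medium against fresh, 9 of the 24 rose and 6 fell (median 0.07), against 14.6% and 15.6% of all genes. EIF4EBP1 fell by 0.51 ± 0.07 there, while TSC1 rose by 0.37 ± 0.05 and TSC2 by 0.27 ± 0.04. The genes named are only a part of the list. The mean of the S6 kinase gene RPS6KB1 was 86.92 CPM in fresh medium and 110.2 CPM in that pre-treated group. Of 4 nucleolar stress genes 2 rose and 0 fell in senescent against proliferative medium, against 16.6% and 12.4% of all genes. MDM2 (0.09 ± 0.07) and CDKN1A (-0.05 ± 0.09) did not pass. Mitochondrial ribosomal proteins, which build the separate ribosome of mitochondria, were counted too: 44 of 78 rose and 1 fell (median 0.27) in senescent against proliferative medium. In the fraction below 3 kDa against intact senescent medium 49 fell and 1 rose (median -0.34), while 22.7% of all genes fell and 19.9% rose. After pre-treatment with senescent medium against fresh 6 of the 78 rose and 19 fell (median -0.14), against 14.6% and 15.6% of all genes.

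Among 14796 genes outside the set, those whose means in the 8 groups followed the mean of the members most closely were FAU (r = 0.995), EIF3E (0.988), PYM1 (0.988), EIF3M (0.983) and PRKAG1 (0.982), over 8 group means. EIF3E and EIF3M are subunits of an initiation factor, PYM1 is a ribosome-bound factor that removes exon junction complexes, and PRKAG1 is a subunit of the energy sensor AMPK. EIF3E had 534.2 to 556.1 CPM in proliferative, 677.1 to 715.4 CPM in senescent and 415.4 to 465.2 CPM in the group pre-treated with senescent medium. The means of these genes over groups spanned 0.49 (PYM1) to 0.75 (FAU) on the log2 scale.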

How the data were processed

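Polyadenylated RNA of 24 libraries (8 groups of 3) was prepared with the NEBNext Ultra 2 kit, per the labels. The submitters' processing notes name STAR 2.6.1, DESeq2 (version 2) and build GRCh38, without a role for each. For the read counter and its use of strand, a setting is not given in the sources used here. Raw counts and FPKM of each gene stand side by side in the authors' deposited table. The authors' FPKM rest on the gene length listed there.

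The members, gene lists and settings were chosen with earlier results of these data known. Counts were fitted in edgeR 4.0.16 (R 4.3.3) with TMM factors (0.957 to 1.03), filterByExpr (19210 genes, 80 members kept), 1 mean per group and robust quasi-likelihood (16 residual degrees of freedom), with Benjamini-Hochberg adjustment over all genes and a two-sided threshold of 0.05. Standard errors were derived from the log2 fold change and its F statistic and are approximate. CPM use TMM factors, and log2 CPM a prior count of 2. The procedure was tested on simulated data. DESeq2 1.42.0 and limma 3.58.1 on log2(FPKM + 1) served as alternatives, beside other scalings, no filter, length and GC corrections, a replicate block, added pseudogene counts and leaving out each library. Transcript lengths are medians over coding transcripts of GENCODE 29, and start sequences come from RefSeq.

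Members named are those singled out for a role or a paralog, the 4 largest rises and falls per comparison, called members against the majority, and the 3 highest and lowest per subunit by FPKM. Members named outside this rule (RPS15A, RPS26, RPS9 in other comparisons and the like) were chosen after their values were seen. Some single genes counted in the totals are not reported here.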

Additional observations from a re-analysis of the deposited data

Results flagged for a closer look

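The effect of senescent against proliferative medium was compared between direct exposure and pre-treatment with edgeR (an interaction contrast over 4 groups of 3 libraries). In this contrast 52 of 80 members passed, all negative: the senescent minus proliferative difference was lower after pre-treatment than in direct exposure. Of all genes tested, 8.19% were negative and past the threshold and 5.58% positive and past it. Among the lowest values were RPL9 (-0.76), RPS7 (-0.66) and RPS20 (-0.60), on the log2 scale. The labels do not say what the pre-treated cells were kept in before RNA was taken, so the exposures cannot be matched.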

How the results depend on the processing

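Counts of called members stayed within 1.5 times the reported ones under every setting run, save 1: fitting only the groups compared gave 34 calls (14 rises, 20 falls) instead of 20 for the fraction above 3 kDa against fresh medium. In proliferative against fresh medium the 28 rises and 19 falls became 32 and 14 with upper quartile factors and 24 and 25 with the replicate block and the transcript length and GC correction, in the fraction below 3 kDa against fresh 24 and 12 became 36 and 8, and in the fraction above 3 kDa against fresh 10 and 10 became 6 and 19 with library totals and 7 and 17 with the transcript length correction, alone or with GC. For upper quartile factors and library totals, the shares of all genes moved in the same directions, as given above. In boiled against fresh medium 26 and 4 became 21 and 8 with the transcript length correction. These length and GC corrections by transcript were chosen after seeing the data. The median of all genes in the fraction below 3 kDa against senescent medium was 0.03, and 0.11 with library totals. RPS6 in the fraction below 3 kDa against fresh medium (-0.10) came to 0.00 with the transcript length and GC correction, with and without the replicate block (adjusted p = 0.997 and 0.995), and RPLP2 in that fraction against senescent medium (-0.11) to 0.006 with the table length correction (adjusted p = 0.914, and 0.915 with the block). Of 278 single values followed, the alternatives gave 5898 results with the same call and direction, 216 that lost and 92 that gained a call.

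Leaving out 1 library gave 61 calls each time for senescent against proliferative medium, 62 to 65 for senescent, 40 to 44 for proliferative, 24 to 30 for boiled, 29 to 46 for below 3 kDa, 15 to 19 for above 3 kDa, 52 to 60 and 51 to 58 for pre-treatment with proliferative and senescent medium, each against fresh. It gave 57 to 61, 61 to 64 and 62 to 66 for boiled, below and above 3 kDa against senescent medium, 47 to 54 for the interaction and 0 to 0 for the pre-treated pair. Of the 63 calls in senescent against proliferative medium 59 remained whichever library was left out. Equal replicate numbers showed no pairing of libraries on average: over 84 same-numbered pairs the mean correlation of deviations was -0.01 (-0.43 to 0.61), and 6 of 24 libraries correlated best with their own number. Single pairs ranged widely, so this mean cannot decide whether some of the libraries were paired. A replicate block gave 62 calls in senescent against proliferative medium, and moved no count by over 1.5 times. With 3 libraries a group, members with few counts (RPS10, RPL17, RPL3L) allow only large changes to be seen.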
